A study of Mus musculus with 12 samples.

Results

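Dense peak domains are stretches of the genome in which accessible sites crowd together. They were chosen by position in the peak list of wild-type (WT) C2C12 myoblasts: autosomal WT peaks were stitched into groups wherever the gap between neighbours was 12500 bp or less, and groups with 5 or more peaks were kept. This gave 573 domains, which held 3527 of the 33375 autosomal WT peaks (10.6%). C2C12 is an established mouse myoblast line, and the peaks came from ATAC-seq, an assay in which Tn5 transposase inserts adapters where chromatin is open. The WT cells and cells knocked out for Runx1 (KO) grew in the same medium, containing 20% fetal bovine serum, and were sampled at day 0, with 3 samples per genotype. Per the labels no other treatment applied, and whether the KO cells came from 1 clone is not given in the sources used here. Samples taken at day 2 were not analysed here.

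All names in both peak lists carry the replicate 1 label, so each list rests on 1 library per genotype. No replicate error and no test between genotypes exist for these lists, and sequencing depth is unknown. The autosomal KO list was shorter, with 26588 peaks. All intervals given are 95% intervals that cover counting error over peaks of these libraries only, and neighbouring peaks of a domain are not independent of each other. Of 8 myoblast marker genes, 6 had a WT peak within 10 kb, a share near the 65.9% of all autosomal protein-coding genes. Des, Itga7 and Chrna1 lay in a domain, while Myf5 and Msc had 0 peaks. None of the 5 blood markers had a peak, while 12 of the 17 markers of other cell types did, with up to 4 peaks at the neuronal gene Syt1 against 2 at Myod1. No marker of hepatocytes, neurons, adipocytes, endothelium, epithelium or pluripotent cells lay in a domain. Over all autosomal protein-coding genes 4.42% had a domain over the body. Few or none would thus be found among so few markers, and their absence does not set these cell types apart.

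Clusters of accessible sites are usually made of promoters and enhancers, short DNA segments bound by transcription factors, and long clusters are a known feature of genes that shape the identity of a cell. Runx1 encodes a DNA-binding factor of the RUNX family that pairs with the cofactor encoded by Cbfb and acts with other factors, including those of the ETS and AP-1 families. In skeletal muscle it is known to be induced by injury and denervation and to act in proliferating myoblasts. The question here was how the sites inside dense domains of WT cells compare with all other WT sites in having a counterpart in KO cells. A WT peak is said to have a KO partner when a KO peak overlaps it by at least 1 bp.

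Sequence at 2 kinds of domain feature is shown first, promoters and microRNAs. Promoters (RefSeq, build GRCm38.p6) are windows of 300 bases at a gene start, most of them before it. A promoter lay under a WT peak in 288 of the 558 domains outside the chromosome left out of the promoter table (51.6%). The first 3 are the domain promoters whose WT peak had the highest deposited −log10 q among those without a KO partner. Coordinates are those of mm10 (the build in the submitters' processing notes, which GRCm38 matches). Plekho2, which encodes a pleckstrin homology domain protein, is at chr9:65580038-65580337 on the minus strand. Fkbpl, which encodes a protein related to the FK506-binding immunophilins, is at chr17:34644564-34644863 on the plus strand. Baiap2, which encodes a membrane-bending adaptor of the actin cytoskeleton, is at chr11:119942842-119943141 on the plus strand. Capitals mark matches, on either strand, to a RUNX core (TGTGGT), an ETS core (CCGGAA), an E-box (CAGCTG), an AP-1 site (TGANTCA) or a TEAD core (GGAATG).
Plekho2: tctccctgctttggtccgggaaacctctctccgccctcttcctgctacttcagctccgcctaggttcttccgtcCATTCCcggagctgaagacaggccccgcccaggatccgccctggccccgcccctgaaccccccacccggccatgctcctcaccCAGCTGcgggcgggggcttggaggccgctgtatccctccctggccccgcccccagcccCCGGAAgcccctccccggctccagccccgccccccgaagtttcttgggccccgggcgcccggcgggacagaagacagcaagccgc
Fkbpl: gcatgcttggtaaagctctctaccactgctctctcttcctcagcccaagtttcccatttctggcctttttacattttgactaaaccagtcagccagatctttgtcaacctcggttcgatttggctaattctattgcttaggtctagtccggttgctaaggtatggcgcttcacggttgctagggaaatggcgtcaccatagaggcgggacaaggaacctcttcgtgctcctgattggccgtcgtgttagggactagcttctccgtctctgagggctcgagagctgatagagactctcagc
Baiap2: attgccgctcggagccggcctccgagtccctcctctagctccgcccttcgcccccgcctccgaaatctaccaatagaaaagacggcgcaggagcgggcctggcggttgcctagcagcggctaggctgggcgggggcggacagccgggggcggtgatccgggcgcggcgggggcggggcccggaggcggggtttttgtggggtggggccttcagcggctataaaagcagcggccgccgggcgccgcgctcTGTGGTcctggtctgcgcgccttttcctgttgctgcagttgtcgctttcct

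The second 3 are the domain promoters under the WT peaks with the highest −log10 q among those with a KO partner. Calr encodes the endoplasmic reticulum chaperone calreticulin and is at chr8:84846882-84847181 on the minus strand. Zswim4, which encodes a SWIM zinc finger protein, is at chr8:84236993-84237292 on the minus strand. Ankrd54, which encodes an ankyrin repeat protein, is at chr15:79062810-79063109 on the minus strand.
Calr: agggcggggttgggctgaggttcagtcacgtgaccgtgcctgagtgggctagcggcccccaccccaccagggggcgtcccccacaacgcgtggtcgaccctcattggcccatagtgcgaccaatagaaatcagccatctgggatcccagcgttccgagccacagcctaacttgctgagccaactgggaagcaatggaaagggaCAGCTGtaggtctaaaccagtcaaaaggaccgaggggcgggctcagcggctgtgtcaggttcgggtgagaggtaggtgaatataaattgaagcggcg
Zswim4: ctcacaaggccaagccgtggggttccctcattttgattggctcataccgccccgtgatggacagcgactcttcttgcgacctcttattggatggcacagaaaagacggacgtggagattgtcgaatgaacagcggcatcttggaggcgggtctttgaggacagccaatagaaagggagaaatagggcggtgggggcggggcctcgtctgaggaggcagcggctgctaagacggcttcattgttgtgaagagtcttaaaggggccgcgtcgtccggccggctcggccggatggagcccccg
Ankrd54: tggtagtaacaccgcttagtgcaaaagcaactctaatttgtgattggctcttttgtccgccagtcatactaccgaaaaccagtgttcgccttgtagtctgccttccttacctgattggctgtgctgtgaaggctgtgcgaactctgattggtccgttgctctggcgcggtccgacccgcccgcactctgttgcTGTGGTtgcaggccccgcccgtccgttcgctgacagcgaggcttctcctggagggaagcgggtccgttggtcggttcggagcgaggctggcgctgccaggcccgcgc

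Among the sequences shown, the RUNX core was spelled by Baiap2 from the first 3 and by Ankrd54 from the second 3. Over all domains it was present in 66 of 451 promoters under a partnered peak (14.6%) and in 12 of 73 promoters under a peak without a partner (16.4%). It was present in 14.8% of all 20085 autosomal promoters in the table and in 11.5% of 6939 promoters under a partnered peak outside domains. The ETS core was found in 28.2% of the domain promoters under a partnered peak and 35.6% of those without a partner. Outside domains the order was the other way round, with 35.1% under partnered peaks and 27.0% under peaks without a partner, and it was 19.1% over all promoters. The E-box was spelled by 17.96% and 20.55% of the domain promoters with and without a partnered peak, against 15.6% of all promoters. The AP-1 site was spelled by 5.99% and 5.48%, against 7.06% of all promoters. The TEAD core was spelled by 13.1% and 16.4%, against 13.4% of all promoters. Promoters under peaks were richer in G and C than the rest, with a median GC content of 61.7% (domain, partnered), 59.7% (domain, no partner) and 51.7% (no WT peak). These are letter matches and not bound sites. The class of 73 promoters, from 67 genes, is small.

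Of 919 autosomal microRNA hairpins, 33 lay in a domain (3.59%). The mature sequences printed here belong to widely studied microRNAs picked from the 33 after the overlap was known. They are from RefSeq, with the seed (bases 2 to 8) in capitals. miR-29a and miR-29b share a seed, as do miR-195a and miR-497a. The others each have a seed of their own.
miR-206-3p: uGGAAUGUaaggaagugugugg
miR-133b-3p: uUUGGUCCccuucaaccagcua
miR-29a-3p: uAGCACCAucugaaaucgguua
miR-29b-3p: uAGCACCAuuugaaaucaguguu
miR-195a-5p: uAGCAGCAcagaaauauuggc
miR-497a-5p: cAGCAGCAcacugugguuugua
miR-21a-5p: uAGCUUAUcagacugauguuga
let-7e-5p: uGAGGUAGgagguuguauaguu
miR-125a-5p: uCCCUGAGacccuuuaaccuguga

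miR-206 and miR-133b are made from neighbouring hairpins and are known as muscle microRNAs. Their domain, chr1:20667657-20691619, spanned 23.96 kb with 5 WT peaks, and its nearest protein-coding gene for most peaks was Il17a. The deposited fold, read here as the ratio of a peak to its local background, was 9.61, 4.98, 14.8, 7.71 and 7.87 along the domain. The fold is used only within a list. The last 3 peaks had a KO partner and the first 2 did not. The miR-206 hairpin (chr1:20679010-20679082) lay under the fourth peak, which was partnered. The hairpins of miR-29a and miR-29b-1, which target transcripts of collagens, lay in one of the domains with most peaks, chr6:31058901-31130835, where 12 of 14 WT peaks had a partner. The domain with miR-195a and miR-497 had 6 of 7 peaks partnered, that with let-7e and miR-125a 7 of 8, and that with miR-21a 4 of 6. These shares lie around the 72.4% of all domain peaks.

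The domains varied in size. Along the autosomes they spanned 17.55 Mb in all, of which peaks covered 1.44 Mb, or 10.4% of the 13.79 Mb under all autosomal WT peaks. A domain held 5 to 15 peaks with a median of 6, and 279 of 573 had exactly 5, while 32 had 10 or more. Spans ran from 7.24 kb to 83.51 kb with a median of 29.02 kb. Peaks covered a median of 8.19% of a domain, and the median of the typical gap between neighbours was 5.39 kb. The peak count is the measure that selected the domains, so the values on either side of the threshold are given once: 610 groups of 4 peaks fell just outside, with a median span of 18.2 kb, and the 279 groups of 5 just inside had a median of 23.91 kb.

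**Figure D1:**
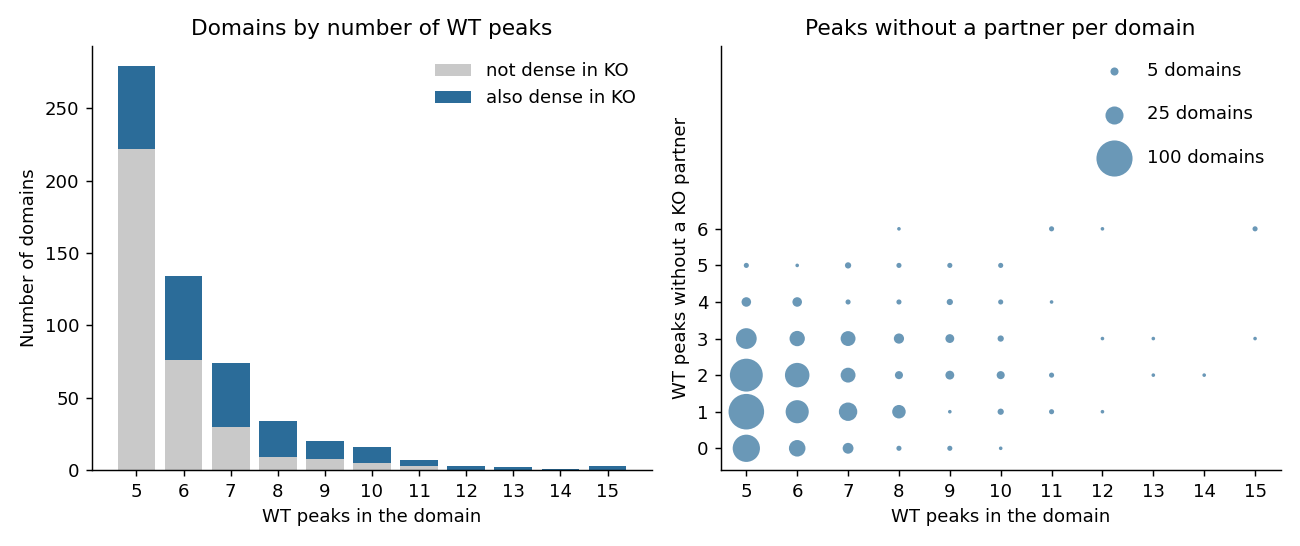
Left: number of domains (y axis) by the number of WT peaks they hold (x axis), split by whether a domain made from the KO list by the same rule overlaps them. Right: number of WT peaks without a KO partner (y axis) against the number of WT peaks (x axis), with area proportional to the number of domains. Of the 279 domains of 5 peaks, 57 were also dense in KO, against 24 of the 32 with 10 or more.

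The domain with the most peaks and the longest span ran across several genes, among them Nfix and Calr, at chr8:84773928-84857433. Nfix encodes a nuclear factor I protein that drives the fetal program of muscle. It had 15 WT peaks over 83.51 kb, 12 of them with a KO partner. The highest deposited fold of its peaks was 24.3, at the Calr promoter shown above, and the 3 peaks without a partner had folds of 3.97, 6.69 and 4.59. A neighbouring domain in Nfix had 8 peaks, 7 of them partnered. Domains clustered there: 8 of them had their centre in the window chr8:84000001-86000000, and these held 65 WT peaks with 53 partnered. The other window of 2 Mb with 8 domains was chr15:98000001-100000000, which holds tubulin genes and Lima1, with 39 of 48 peaks partnered. In the whole set, 133 domains lay within 100 kb of another domain, and the median distance to the nearest was 513.6 kb.

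A further pair of domains also had 15 peaks. One lay at Ccn4, a matricellular gene of the WNT pathway, in a stretch that also overlaps Tg (chr15:66844112-66899939), and the other at Plec, which encodes the cytoskeletal linker plectin (chr15:76189862-76257953). Each had 9 peaks with a KO partner and 6 without. In the Plec domain the peak without a partner that had the highest fold, 13.3, was also the highest of the whole domain. In the Ccn4 domain the highest fold was 12.7 and that peak was partnered. Midn had 13 peaks with 10 partnered, and Col5a1, a fibrillar collagen chain gene, had 12 with 9 partnered. A domain of 13 peaks over a cluster of histone genes on chromosome 13 had 11 partnered peaks. Its near-identical gene copies make the mapping of reads uncertain. The domain at Junb, an AP-1 subunit, had 11 of 12 peaks partnered, and that at Adamtsl4 and Mcl1 had 10 of 10. The domain at Cdc42ep1, an effector of the small GTPase CDC42, had 6 of 12.

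**Figure D2:**
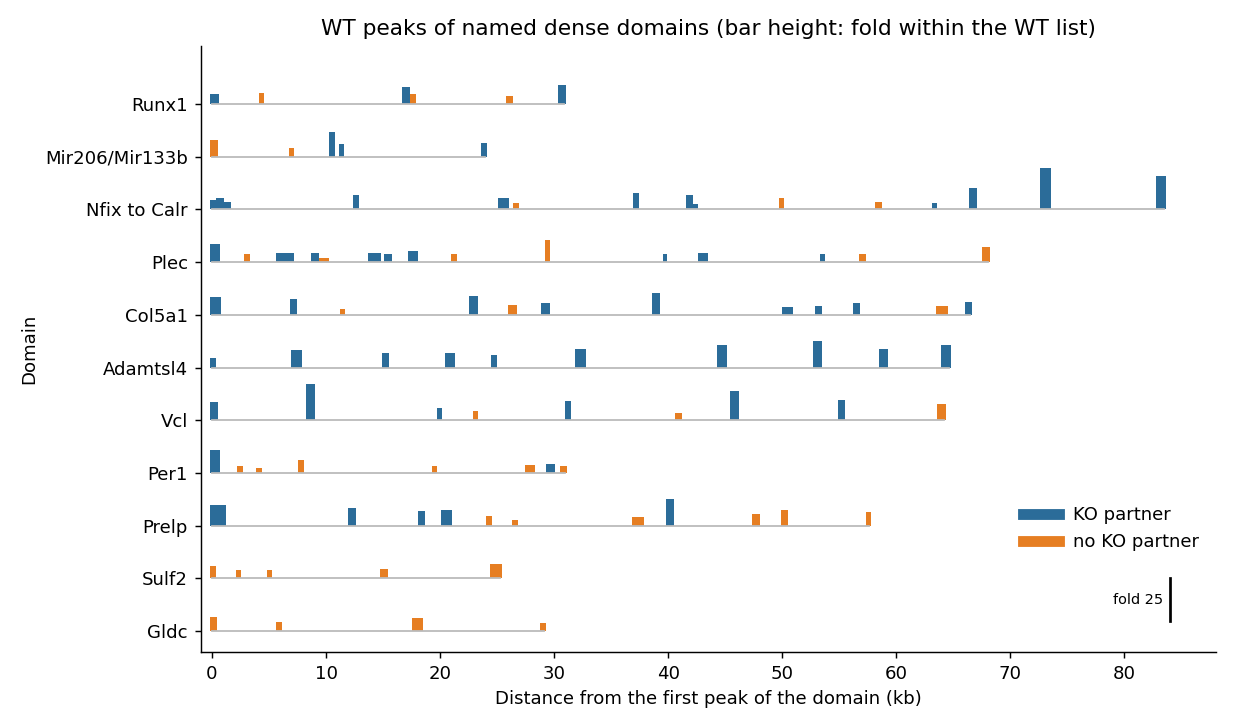
WT peaks of 11 named domains by distance from the first peak in kb (x axis). Bar height is the deposited fold of the peak (scale bar 25), bars are drawn 0.3 kb wider than the peak, and colour gives whether a KO peak overlaps. The domains nearest Sulf2 and at Gldc have no partnered peak, and all 10 peaks of the Adamtsl4 domain are partnered.

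KO partners were as frequent inside domains as outside to within about 2 percentage points. Inside, 2554 of 3527 WT peaks had a partner (72.4%, Wilson interval 70.9% to 73.9%). Outside, 21702 of 29848 did (72.7%, 72.2% to 73.2%). The difference was −0.30 percentage points, with an interval of −1.88 to 1.24. Of domain peaks 27.6% had no partner, against a background of 27.3% over all autosomal WT peaks. The share also varied little with the size of the group: it was 72.7% for single peaks, 71.3% for groups of 4, 71.3% for domains of 5, 74.1% for domains of 7 and 73.7% for domains of 10 or more.

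How strong a peak was in the WT list went with a far larger range. Ranked by the deposited −log10 q, the share of domain peaks with a partner was 24.9% in the weakest decile of the WT list, 74.1% in the fifth and 99.7% in the strongest. The shares outside were 28.3%, 73.5% and 99.9%, and the intervals inside and outside overlapped in all 10 deciles. Weighting the outside peaks to the deciles of the inside peaks gave a difference of −0.71 points, and weighting to decile and gene position gave −0.42. Within a domain the strongest peak was partnered in 552 of 573 cases (96.3%), the second strongest in 515 (89.9%) and the weakest in 217 (37.9%). Peaks at the edges of a domain had a share of 73.8% and inner peaks 71.7%. Domain peaks had a lower fold than others, with a median of 7.97 against 9.25, at nearly the same median −log10 q of 16.4 and 16.1.

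**Figure D3:**
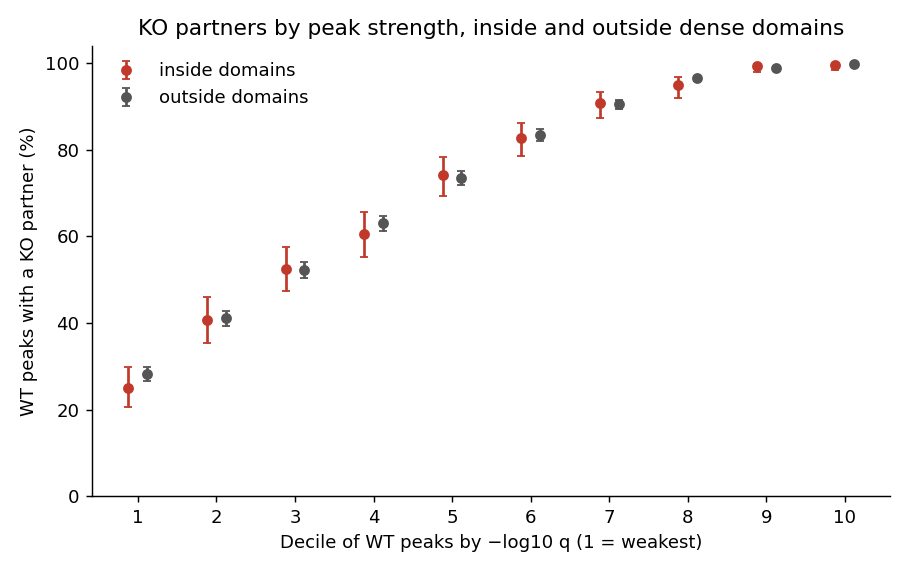
Share of WT peaks with a KO partner (y axis, percent) by decile of the deposited −log10 q over all autosomal WT peaks (x axis), inside and outside domains. Bars are Wilson intervals. The share climbs from 24.9% to 99.7% inside domains, and the intervals of both groups overlap in each decile.

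Position relative to genes divided the domain peaks. Gene ends here are either end of any RefSeq gene, since the gene table gives no strand. Of domain peaks, 24.8% lay within 1 kb of a gene end, 51.4% elsewhere in a gene and 23.8% between genes, against 30.8%, 43.3% and 25.9% outside. Near a gene end the partner share was lower inside domains, 76.4% (73.5% to 79.1%) against 84.2% (83.5% to 84.9%). Between genes it was higher inside, 72.3% (69.2% to 75.2%) against 66.5% (65.5% to 67.6%). Elsewhere in a gene it was 70.5% (68.4% to 72.6%) inside and 68.2% (67.4% to 69.0%) outside, with overlapping intervals. Outside domains the classes spanned 66.5% to 84.2%, and inside domains 70.5% to 76.4%.

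Peak strength differed between these classes too. Near gene ends the median −log10 q was 17.6 inside and 21.0 outside, and between genes it was 15.58 inside and 14.02 outside. Within the weaker part of the WT list, below the median −log10 q, domain peaks near gene ends had partners in 55.0% (50.1% to 59.8%) and outside peaks in 62.7% (61.1% to 64.3%). Within the stronger part the shares were 94.7% (92.3% to 96.4%) and 97.5% (97.0% to 97.9%). Between genes, the stronger domain peaks had partners in 95.3% (92.8% to 97.0%) and those outside in 91.4% (90.4% to 92.3%), while the weaker ones had 50.7% and 47.8% with overlapping intervals. The opposite directions near gene ends and between genes were also present within these parts of the list, though for the weaker peaks between genes the intervals overlapped. Strength still differed inside the parts. In the stronger part the median −log10 q was 29.46 inside and 31.35 outside near gene ends, and 27.31 and 26.59 between genes. In the weaker part it was 9.43 and 9.71 near gene ends, and 9.38 and 9.09 between genes. Whether strength accounts for the differences in partner share was not tested. Without any peak near a gene end, the stitching rule gave 273 domains, and the difference between inside and outside became 4.04 points.

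**Figure D4:**
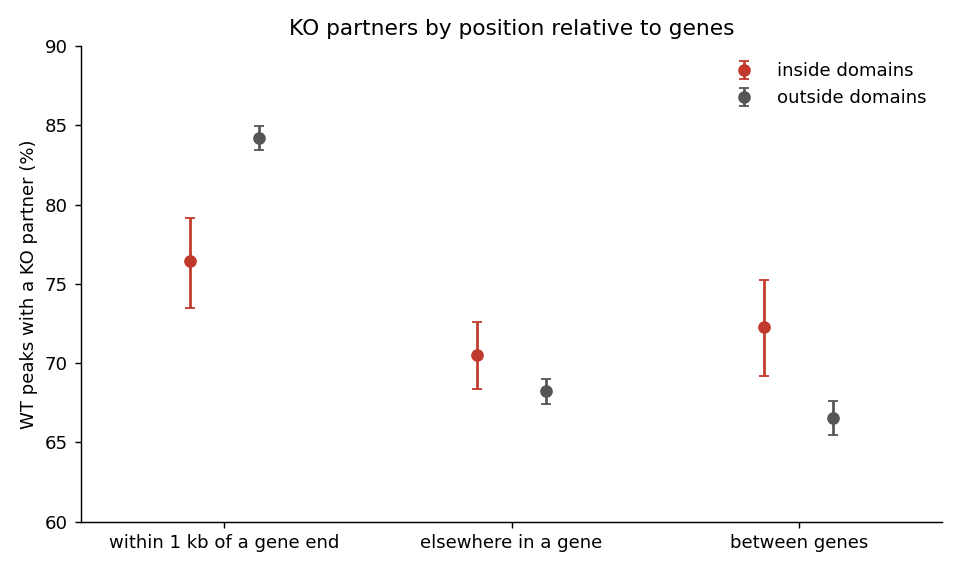
Share of WT peaks with a KO partner (y axis, percent, from 60 to 90) by position relative to genes, inside and outside domains. Bars are Wilson intervals. Near gene ends the domain peaks are lower (76.4% against 84.2%), and between genes they are higher (72.3% against 66.5%).

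As whole units, few domains had no counterpart at all. In 92 of 573 (16.1%) every WT peak had a KO partner, in 185 a single peak lacked one, in 166 a pair did, and in 130 (22.7%) 3 or more did. Most of the peaks lacked a partner in 62 domains (10.8%), for which the median of the domain medians of −log10 q was 10.8, against 22.2 for the domains with every peak partnered. Stitching the KO list by the same rule gave 252 domains. They overlapped 220 WT domains (38.4%, 34.5% to 42.4%). That share was 20.4% for WT domains of 5 peaks, 43.3% for 6, 59.5% for 7, 68.5% for 8 or 9 and 75% for 10 or more, and a domain at the threshold of 5 can miss it through 1 peak. When the WT list was shortened to the number of autosomal KO peaks by −log10 q, an alternative added after the data were seen, it gave 301 domains. Of these 56.8% were also dense in KO, and 82.2% of their peaks were partnered, against 82.4% outside.

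Both domains in which no WT peak had a partner had 5 peaks. One lay nearest to Sulf2, an extracellular heparan sulfate endosulfatase gene, at chr2:166165289-166190557, with folds of 7.57, 4.79, 4.95, 5.73 and 8.57. The other lay at Gldc, which encodes the glycine decarboxylase of the mitochondrial glycine cleavage system, at chr19:30107537-30136684, with folds of 8.64, 5.59, 8.04, 7.78 and 4.78. The highest −log10 q was 14.9 and 11.9, both under the median of 41.5 for the strongest peak of a domain. The domain at Per1, a core gene of the circadian clock, had 6 of 8 peaks without a partner. With only peaks of −log10 q of 10 or more kept in both lists, it held 3 peaks and 1 without a partner, and the domain nearest Sulf2 held 2, both without. The strongest Per1 peak peak, with a fold of 13.9, was partnered, and the 6 others had folds of 3.09 to 7.58. The domains nearest Prelp, a matrix proteoglycan gene, and at Niban2 each had 5 of 11 peaks partnered, and that at Mark2, a polarity kinase gene, had 1 of 6. In the Prelp domain 4 of the 5 partnered peaks were the first 4 of the row.

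In 21 domains the strongest peak lacked a partner; those named here were chosen after their values were seen. The highest −log10 q among them was 47.4, at a peak between genes nearest to Col6a3, a collagen VI chain gene (chr1:90740226-90740543). It was followed by Dlg2 with 35.5, Col4a1, a basement membrane collagen chain gene, with 34.6, and Plekho2 with 32.5 at the promoter shown above. In the Col4a1 domain all other 6 peaks had a partner.

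Whether a WT peak without a partner lay at a KO call that was removed before deposit was not tested. Call numbers in the peak names skip values throughout: the KO list holds 27187 peaks in all, with call numbers up to 48922. A KO number was missing between the flanking KO peaks for 795 of the 973 domain peaks without a partner (81.9%). That share was 87.7% outside domains and 28.7% for partnered domain peaks. For a partnered peak, a flanking KO peak is as a rule its own partner, while a peak without a partner lies in a stretch free of KO peaks. The gap searched thus differs by definition, and the contrast with partnered peaks is no independent result. For the domain nearest Sulf2 the gap held 6 missing KO numbers, and for that at Gldc 4. The flanking KO peaks can lie far from the domain, and whether a missing number fell at these WT peaks or elsewhere in the gap cannot be told apart. Within the domains themselves 348 WT call numbers were skipped, in 247 domains.

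KO peaks without a WT partner were few in the domains. Of 2557 KO peaks in the WT domains, 46 overlapped no WT peak (1.80%), against 2500 of 24031 KO peaks elsewhere (10.4%). The domain rule selects stretches full of WT peaks, so the lower share is no independent result. The domain at Rnf216, which encodes a ubiquitin ligase, had the most, with 2, and there 5 of 7 WT peaks had no partner. Of the 252 KO domains, 32 overlapped no WT domain. Most of these had 5 KO peaks over stretches with 4 WT peaks, such as those at Egfr, Sgk1 and Lamc1, named after their values were seen. The domain nearest Gm7361 had 5 KO peaks over 0 WT peaks.

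Runx1 itself, the gene knocked out, had a dense domain in its body at chr16:92679721-92710581. It spanned 30.86 kb and held 6 WT peaks, with folds of 6.11, 6.61, 10.3, 6.002, 4.89 and 11.4. The partnered peaks were those with folds of 6.11, 10.3 and 11.4, and the stronger ones of the domain were among them. A KO peak lay within 500 bp of 1 of the others. It held 3 KO peaks and was not dense in KO. These peaks do not test the deletion, whose position in the gene is not given in the sources used here. Tle3, which encodes a Groucho corepressor that binds RUNX proteins, had 4 of 5 peaks partnered. It was the only other member in a domain among 11 genes of the RUNX family and its cofactors. The share of 18.2% rests on these 2 genes, against 4.42% of all autosomal protein-coding genes. With a gene end inside a domain it was 1 of 11 (9.09%), and the median length of the listed genes was 91.05 kb.

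Domains overlapped the body, in whole or in part, of 913 of 20665 autosomal protein-coding genes, a background of 4.42%. Among genes with a WT peak within 10 kb it was 6.70%, and over 4 equal classes of gene length it ran from 3.41% to 5.21% with no steady order. Of the domains, 299 each overlapped exactly 1 protein-coding gene, 81 overlapped none and 93 overlapped 3 or more, and 131 lay wholly inside 1 gene. The gene lists were written with earlier results of these data known, and no enrichment test was made. Their shares are set beside the 4.42% as a description. With a gene end required inside the domain, the share of all genes was 3.84%. Peak counts given for a gene are those of its whole domain, which can hold other genes.

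Genes of the actin cytoskeleton and focal adhesions had a domain over the body in 11 of 26 cases (42.3%), the highest share of the 12 lists by this measure. With a gene end inside a domain it was 5 of 26 (19.2%), below the matrix list. Among them were Dst, Tns1, Pxn, Actb, Tns3, Vcl, Plec, Myh9, Lima1 and Lpp, and the domains of the list held 94 WT peaks of which 70 had a partner (74.5%). Vcl encodes vinculin, which couples integrin adhesions to actin, and its domain at chr14:20883398-20947613 had 6 of 9 peaks partnered, with a highest fold of 21.6. Myh9, the non-muscle myosin heavy chain gene, had 10 of 11, and Actb, the beta-actin gene, had 7 of 8. Tns3, which encodes a tensin of focal adhesions, had separate domains over its body with 5 of 6 and 6 of 7. A further domain between genes, nearest to Tns3 and not counted in the list, had 5 of 8. Dst, a spectraplakin gene that links filament systems, was the member with the lowest share, 3 of 8. Of the 12 domains, 9 were also dense in KO, against 38.4% of all domains and 68.5% of those with 8 or 9 peaks. These domains had a median of 7.5 peaks. The median length of the listed genes was 31.9 kb, against 17.5 kb for all genes.

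Extracellular matrix genes followed with 9 of 24 (37.5%): Col5a1, Tnc, Col1a2, Col4a1, Col4a2, Col6a2, Sparc, Col1a1 and Timp2. Of their 66 domain peaks, 54 had a partner (81.8%), against 72.4% of all domain peaks. With a gene end inside a domain the share was 7 of 24 (29.2%), and the median length of the listed genes was 66.2 kb. The domains had a median of 7 peaks, and 7 of 9 were also dense in KO, against 59.5% of all domains of 7 peaks. Every peak was partnered at Col1a1, a chain of collagen I (5 of 5), and at Sparc, a collagen-binding matricellular protein (6 of 6). Tnc, which encodes tenascin C, had 8 of 9 and Col4a2 had 7 of 9. Col6a2 was the exception with 2 of 5.

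Signalling genes of the TGF-beta and BMP pathways had 4 members in domains out of 18 (22.2%), and 21 of 38 peaks were partnered (55.3%), with 1 of 5 domains also dense in KO. The median length of the listed genes was 65.1 kb, and with a gene end inside a domain the share was 3 of 18 (16.7%). The domains had a median of 8 peaks, and 68.5% of all domains with 8 or 9 peaks were also dense in KO. Smad3, a receptor-activated transducer of TGF-beta, had 5 of 8. Ski, a corepressor of SMAD proteins, had domains with 5 of 10 and 6 of 7. Ltbp2, which encodes a latent TGF-beta binding protein family member, lay in a domain with 3 of 8. The remaining one, Smad7, which encodes an inhibitory SMAD, had 2 of 5. The partnered share of 55.3% is lower than the 72.4% of all domain peaks, but it rests on 5 domains and peaks of a domain are not independent.

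**Figure D5:**
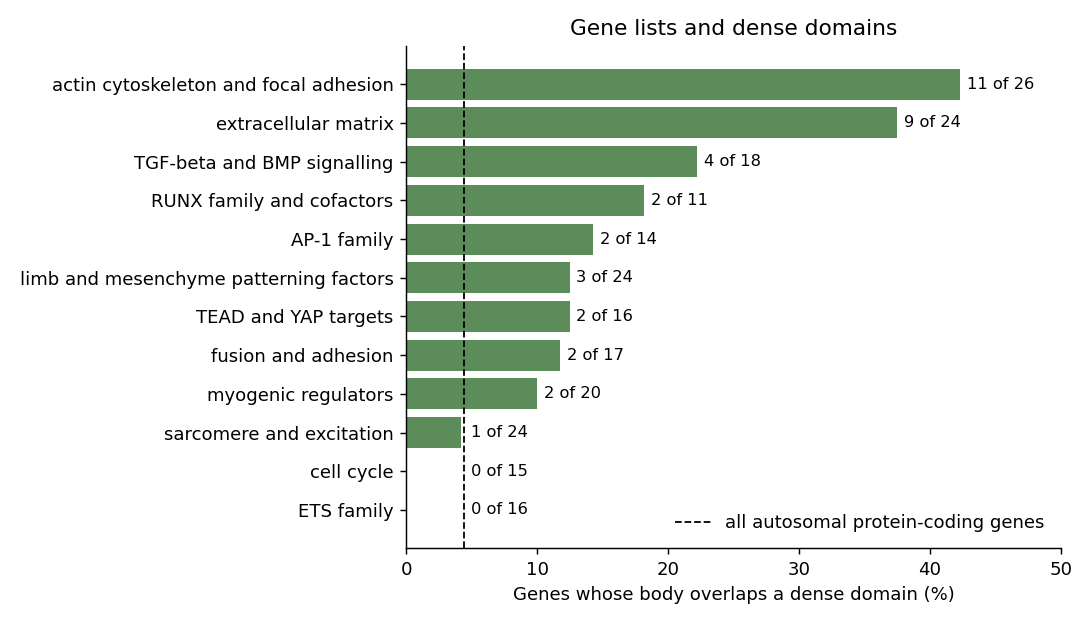
Share of the genes of each list whose body overlaps a dense domain (x axis, percent, bars from 0), with counts beside the bars. The dashed line is the 4.42% of all autosomal protein-coding genes. Actin and matrix lists stand at 42.3% and 37.5%, and the cell cycle and ETS lists at 0.

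Transcription factor lists had 0 to 3 members in domains, and for the AP-1, limb, myogenic and TEAD lists the share was over 2 times the 4.42% of all genes. Each of these shares rests on 2 or 3 genes, and among all genes with a WT peak within 10 kb the share was 6.70%. For AP-1, Junb and Fosb lay in domains out of 14 (14.3%), with 18 of 20 peaks partnered, and both domains were also dense in KO. For limb and mesenchyme patterning factors, 3 of 24 genes did, Prrx1 and Nfix among them, or 1 with a gene end in the domain, with 28 of 35 peaks partnered. Of 20 myogenic regulators, 2 had a domain (10%). Id1, an inhibitor of the myogenic factors, was among them, with 3 of 5 peaks partnered. The TEAD and YAP list had Amotl2 and Ajuba out of 16, both of which restrain or scaffold the Hippo pathway, with 7 of 13 peaks partnered. None of the 16 autosomal ETS genes and none of the 15 cell cycle genes overlapped a domain. At the 4.42% of all genes, lists of this size would hold under 1 such gene, so a count of 0 does not set them apart.

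Sarcomere genes had a share near the background. Of 24 sarcomere and excitation genes, Tnnt2, which encodes the cardiac form of troponin T, was the only one (4.17%), with 4 of 5 peaks partnered. Of 17 fusion and adhesion genes, Itga7 and Dock5 had domains (11.8%), against 4.42% of all autosomal protein-coding genes. This share rests on 2 genes, and the median length of the listed genes was 58.04 kb. Itga7 encodes the laminin receptor subunit of muscle, and 7 of 8 peaks were partnered in its domain, which also overlaps other genes. Itga7 itself had 5 WT peaks within 10 kb, 4 of them partnered. Dock5, an exchange factor for RAC, had a domain of 5 peaks with all partnered and another with 2 of 5.

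Domains were spread unevenly over chromosomes. Chromosome 15 had 18.8% of its WT peaks in domains and chromosome 8 had 15.8%, against 6.12% on chromosome 13. Peak density differed too, with 19.65, 15.63 and 12.52 WT peaks per Mb in that order. Chromosome 11 had 20.51 per Mb and 13.6% of its peaks in domains. Whether density accounts for the uneven spread was not tested. The share of domain peaks with a partner was lowest on chromosome 16, where Runx1 lies, at 58.6% (46.9% to 69.4%) of 70 peaks, and highest on chromosome 3 at 82.2% (75.8% to 87.3%) of 169. The interval for chromosome 16 lies below that of all domain peaks and is wide; it is the lowest of 19 chromosomes, picked after the values were seen.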

How the data were processed

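ATAC-seq of C2C12 myoblasts was described in 12 samples in 4 groups; the peak lists cover WT and KO cells in growth medium, and 2 of the 5 lists were used. Per the file contents, the lists have a narrowPeak layout with no header. The fold values (read as a ratio of peak to local background) and the −log10 q values were deposited by the authors for each peak. The columns have no names, so what they hold is inferred from the layout and the values. Use of the fold and −log10 q values was limited to descriptions, ranks and filters inside 1 list at a time. The build, mm10, is given in the submitters' processing notes. The aligner, peak caller, Tn5 offset, duplicate handling and the rule by which calls were removed are not given in the sources used here, and each can change the number and edges of peaks. Depth is unknown.

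Autosomal peaks of the 19 autosomes were stitched at gaps of 12500 bp or less, and groups of 5 or more peaks were kept. Partners overlap by at least 1 bp. Gene bodies, promoters and microRNAs came from RefSeq tables of GRCm38.p6, and a peak was near a gene end within 1 kb. Shares carry 95% Wilson intervals. The work used pandas 2.3.3, numpy 2.4.6 and scipy 1.17.1 under Python 3.11.15. The functions for stitching, overlap and gene ends were tested on simulated intervals with known answers. Stitching and overlap were also checked on the peak lists themselves against bedtools 2.31.1 (8 of 8 checks passed in all). The members and the gene lists were chosen with earlier results of these data known. Named domains were those with most peaks, longest span, highest summed fold, most peaks without a KO partner, no partner at all, or most KO peaks without a WT partner, and those at listed genes, each named by the protein-coding gene that holds or lies nearest most of its peaks. Other gaps, minimum sizes, overlap rules and filters were tried as alternatives. A few members of the lists are counted but not reported by name here.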

Additional observations from a re-analysis of the deposited data

How the results depend on the processing

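No paired analysis was possible because the lists hold 1 library per genotype and no result comes from a test between samples. For the same reason no replicate could be left out. The number of domains was 48 with a gap of 5 kb, 1179 with 20 kb, 86 with 8 or more peaks, 211 with −log10 q of 10 or more, 273 without peaks near gene ends, and 301 with the WT list shortened to the number of KO peaks. That last alternative was chosen after seeing the data. The share of domain peaks with a partner was 69.5% when a KO peak had to cover 50% of the WT peak, 74.2% when a KO peak within 500 bp sufficed, 77.0% at −log10 q of 10 or more and 82.2% in the shortened list. The cut at −log10 q of 10 was applied to both lists, so a WT peak could also lose its partner through it. The difference between inside and outside moved beyond its interval only without peaks near gene ends, to 4.04 points, and lay between −0.42 and 1.13 under the other alternatives. Its sign was not steady within that range. The share of WT domains also dense in KO was 33.3% with a gap of 5 kb, 47.0% with 20 kb, 24.4% with 8 or more peaks and 56.8% in the shortened list. Each gap and minimum was applied to the KO list too, so the 24.4% asks for a KO domain of 8 or more peaks, of which there were 26. Against KO domains of 5 or more peaks, the share was 68.5% for WT domains of 8 or 9 and 75% for those of 10 or more. Genes of the domains made up 5.30% when within 10 kb of a domain and 3.84% when an end lay in it. Of 30 values recomputed for the domains at Runx1, Nfix, Per1, Sulf2 and Rnf216, 25 stayed within 1.5 times. The Per1 domain went to 3 peaks and 1 without a partner, that nearest Sulf2 to 2 and 2, and Rnf216 to 3 without. The 5 that moved did so at −log10 q of 10 or more, which removes peaks by construction. For the other changes the cause was not tested. With no depth, a WT peak without a partner cannot be told apart from one that missed the threshold in the KO library.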
